A study of Homo sapiens with 11 samples.

Results

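Semaphorins, ephrins and their receptors were followed in SK-MEL-103 cells, a long-kept line grown from a human melanoma, held for 6 days with etoposide, tozasertib or the solvent DMSO. The genes were taken by symbol alone: every protein-coding gene named SEMA, PLXNA, PLXNB, PLXNC, PLXND, EPHA, EPHB, EFNA or EFNB plus its number, with NRP1 and NRP2. This gave 53 of the 61542 genes in the summed tables, namely 20 semaphorins, 9 plexins, 2 neuropilins, 14 Eph receptors and 8 ephrins. Etoposide, a topoisomerase II poison, was used at 0.25 µM (4 libraries), tozasertib, an aurora kinase inhibitor, at 0.5 µM (3 libraries), and DMSO alone served as the control (4 libraries). Medium and drug were renewed on day 3, and the drug-treated cells are labelled senescent. All groups are the same cell line at 1 dose and 1 time. The labels number the replicates without saying that they were separate cultures, so p-values measure the spread between these libraries, which may be technical.

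Semaphorins are guidance cues first known from growing axons. Those of class 3 are secreted and act on complexes of a neuropilin, which binds the ligand, and a plexin, which signals to small GTPases; classes 4 to 7 stay on the cell surface and mostly bind plexins directly. Eph receptors are tyrosine kinases engaged by ephrins on a neighbouring cell, ephrin-A ligands being held by a lipid anchor and ephrin-B ligands by a transmembrane segment, and signals run into both cells. Melanocytes derive from the neural crest, whose migrating cells are steered by both systems.

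Libraries held 28547842 to 40170233 estimated reads with etoposide, 27882689 to 56534763 with tozasertib and 28863009 to 32957818 with DMSO. The 53 genes took 0.354 to 0.371% of reads with etoposide, 0.372 to 0.383% with tozasertib and 0.224 to 0.289% with DMSO. Gene length moved with the library among the DMSO samples: Spearman's rank correlation over genes between length and the deviation from the group mean was -0.478 in DMSO replicate 1 and 0.403 in DMSO replicate 4, while the etoposide and tozasertib libraries lay between -0.077 and 0.111; the part of this in the results was not tested beyond the fits without those libraries and with a length term. Of the melanocyte markers, SOX10 was abundant, at a mean of 179 TPM (a length-corrected transcript share) with etoposide, 216 TPM with tozasertib and 251 TPM with DMSO, whereas MLANA was at 0 in every group and the highest group mean of TYR, TYRP1 and DCT was 0.137 TPM, so these pigment genes were nearly absent. Of the 6 melanocyte markers tested, 2 rose and 3 fell with etoposide and 3 rose and 3 fell with tozasertib: ERBB3 had log2 fold changes of -3.21 with etoposide and -1.80 with tozasertib, S100B averaged 3.87 TPM with etoposide, 6.14 TPM with tozasertib and 1.91 TPM with DMSO, and the pigment gene PMEL averaged 0.35 TPM with etoposide, 3.47 TPM with tozasertib and 0.297 TPM with DMSO. Summed fibroblast markers were 184 to 216 TPM with etoposide, 186 to 195 TPM with tozasertib and 59.9 to 67.2 TPM with DMSO, carried by LUM, at 159 TPM with etoposide, 161 TPM with tozasertib and 32 TPM with DMSO, while the highest group mean of DCN and COL3A1 was 0.215 TPM. Of the 6 fibroblast markers tested, 3 rose and 2 fell with each drug; COL1A1 averaged 13.8 TPM with etoposide, 7.44 TPM with tozasertib and 1.44 TPM with DMSO, while PDGFRB (-1.39 with etoposide and -1.06 with tozasertib) and TWIST2 (-0.54 and -0.64) fell. Of the keratinocyte, endothelial and immune markers, KRT5, CDH5, ERG, PTPRC and CD3E had 0.155 TPM as their highest group mean. Summed keratinocyte markers were 47.9 to 48.8 TPM with etoposide, 46.8 to 53.3 TPM with tozasertib and 38.5 to 45.9 TPM with DMSO, where KRT17 rose (1.92 with etoposide and 2.59 with tozasertib) and KRT14 fell (-0.84 and -1.58). Summed endothelial markers were 31.8 to 37.2 TPM with etoposide, 32.1 to 42.7 TPM with tozasertib and 37.9 to 50.3 TPM with DMSO, nearly all TIE1. Summed immune markers were 29.5 to 33.9, 38.1 to 41.8 and 41.6 to 53.2 TPM in the same order, nearly all CD68. Of the 3 endothelial markers tested, VWF rose at least 2-fold with both drugs, while TIE1 and PECAM1 fell. Of the 3 immune markers tested none rose, CD14 and CD68 fell with both drugs and LYZ fell with tozasertib. The part of any of these markers in the results was not tested. In bulk RNA, fewer cells with a transcript and less of it per cell cannot be told apart.

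Levels are given below as CPM, read counts on a common depth after edgeR's TMM scaling, which compare 1 gene between samples, and as TPM, which are per transcript length and compare genes. Fold changes are on the log2 scale with a standard error, p-values come from edgeR's quasi-likelihood test adjusted over all 17033 genes tested, and a gene is said to have risen or fallen where that adjusted p was under 0.05. Of the 53 genes, 47 had reads enough to be tested. EPHA1, EPHA8, EPHA10, EPHB6, SEMA3F and SEMA5B did not; SEMA3F had 4 reads with etoposide, 34 with tozasertib and 11 with DMSO over all libraries of a group. EPHB6, an Eph receptor without kinase activity, had 29, 27 and 11 reads with etoposide, tozasertib and DMSO, and EPHA1, EPHA8, EPHA10 and SEMA5B had between 0 and 13 reads in any group.

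By level, NRP1 led with DMSO (164 ± 52.8 TPM, SD) and SEMA3C led with etoposide (168 ± 10.5 TPM) and with tozasertib (184 ± 7.26 TPM). After NRP1, the next with DMSO were EPHA2 at 64.6 ± 8.32 TPM, NRP2 at 63.8 ± 15.7 TPM, SEMA3B at 63.2 ± 7.26 TPM and SEMA3C at 54 ± 17.2 TPM, neighbours that did not differ beyond their spread. With etoposide the order below SEMA3C was NRP1 (151 ± 10.9 TPM), NRP2 (140.1 ± 4.86 TPM), SEMA3B (136 ± 27.8 TPM) and PLXNB2 (109 ± 3.76 TPM), and with tozasertib NRP2 (172 ± 1.12 TPM), SEMA3B (158 ± 10 TPM), NRP1 (124 ± 1.76 TPM) and PLXNB2 (118 ± 2.49 TPM). SEMA6B went the other way in this order, standing 13th with etoposide, 17th with tozasertib and 8th with DMSO. The ligands SEMA3B and SEMA3C and the receptors NRP1 and NRP2 were thus among the 5 highest means in every group. With DMSO the place of SEMA3C was within the spread of PLXNB2 (49.4 ± 3.28 TPM), PLXNB3 (49.3 ± 5.82 TPM) and SEMA6B (48.6 ± 8.08 TPM), which came next.

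**Figure D1:**
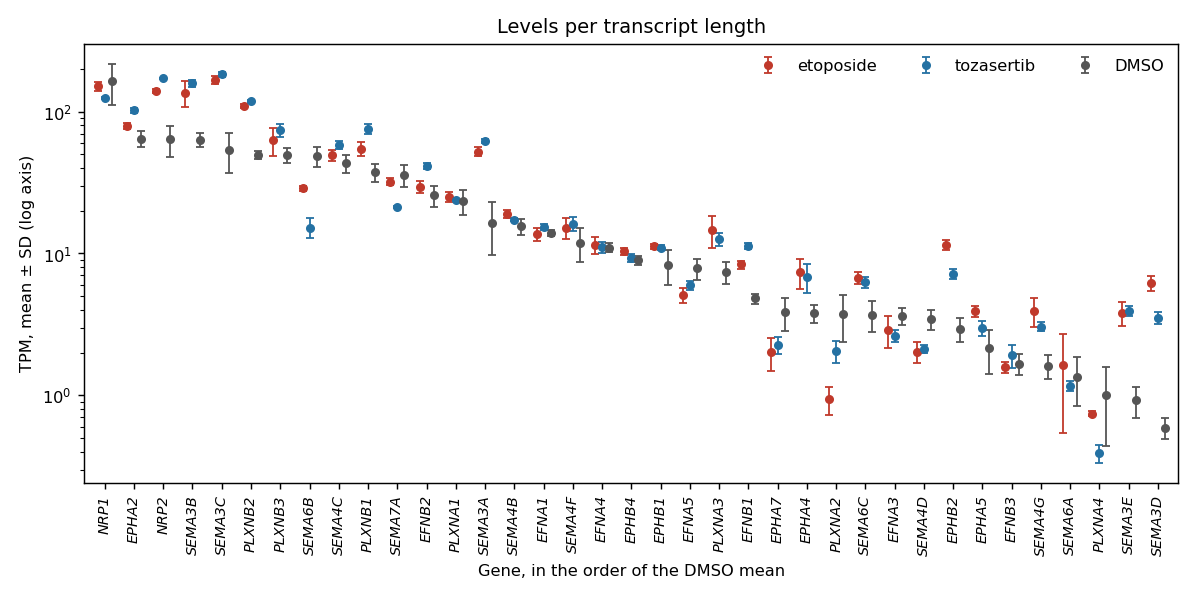
Mean TPM ± SD (log axis) of the 37 genes with at least 1 TPM in the mean of a group, for etoposide, tozasertib and DMSO, ordered by the DMSO mean. NRP1 stands first with DMSO at 164 TPM, and SEMA3C first with etoposide at 168 TPM and with tozasertib at 184 TPM.

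Against DMSO, 22 of the 47 tested genes rose with etoposide (46.8%, where 27.7% of all genes tested rose) and 8 fell (17%, against 30.6% of all genes tested). With tozasertib 24 rose (51.1%, against 29.9% of all genes tested) and 11 fell (23.4%, against 29.4%). Changes of at least 2-fold were seen upward in 10 genes with etoposide (10.2% of all genes tested) and in 14 with tozasertib (12.2%), and downward in 5 with etoposide (7.62%) and 4 with tozasertib (7.26%). The median log2 fold change was 0.26 with etoposide and 0.48 with tozasertib, where the medians over all genes tested were -0.012 and 0.023. The CPM of the groups did not overlap for 29 of the 47 with etoposide (51.2% of all genes tested) and 36 with tozasertib (59.8%). Counts rescaled by transcript length gave fewer calls. With etoposide 16 members then rose and 8 fell, where 4118 of 17170 genes rose and 4597 fell. With tozasertib 18 then rose and 9 fell, where 4351 of 17170 genes rose and 4461 fell. Of the 47, 43 reached the filter's count in 3 libraries of every group. EFNA2 and SEMA4A did so only with tozasertib, SEMA6D only with etoposide, and SEMA5A only with the 2 drugs, so that these 4 were tested through the groups where they are high. Both comparisons share the 4 DMSO libraries, so their values are given side by side and were not counted together.

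**Figure D2:**
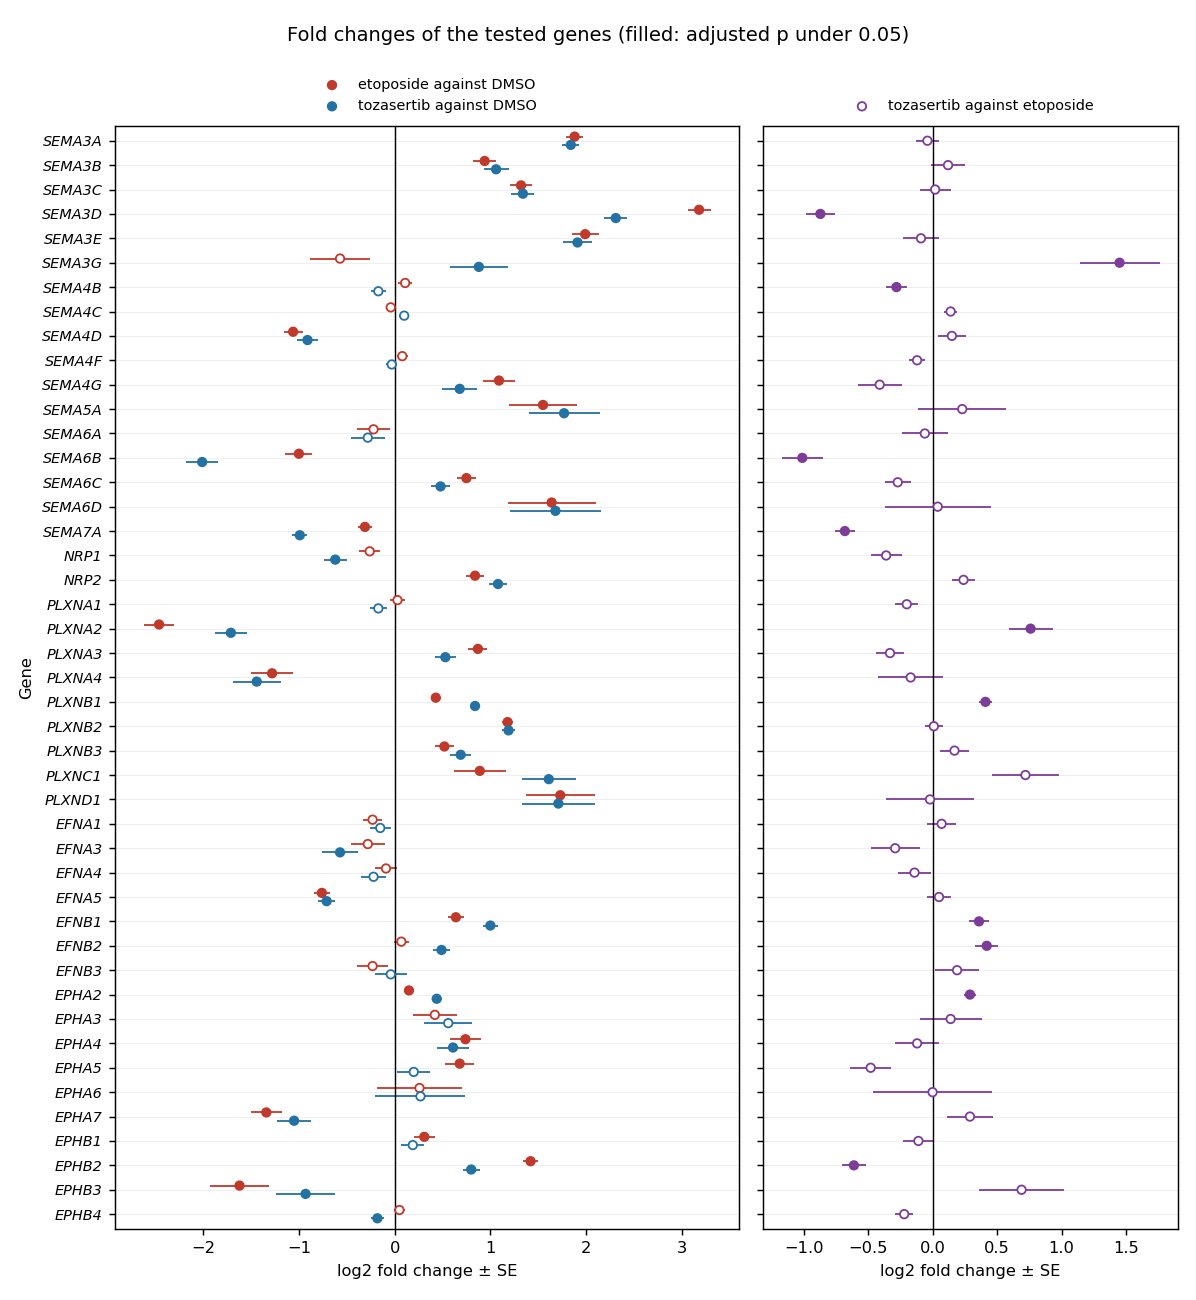
Log2 fold change ± SE of 45 tested genes, on the left for etoposide against DMSO and tozasertib against DMSO, on the right for tozasertib against etoposide. Filled points have an adjusted p under 0.05; EFNA2 and SEMA4A, nearly without reads in DMSO, are not drawn, and SEMA3D stands farthest right on the left panel with etoposide at 3.18.

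The secreted class 3 semaphorins had the highest median fold change of the families. SEMA3F was left untested. With etoposide, 5 of the 6 tested rose (83.3%, against 27.7% of all genes tested) and none fell (against 30.6%). With tozasertib all 6 rose (100%, against 29.9%) and none fell (against 29.4%), SEMA3G by a call lost in 7 of 23 alternative settings. Their medians were 1.60 with etoposide and 1.59 with tozasertib, and their summed level was 366 ± 26 TPM with etoposide, 412 ± 12.2 TPM with tozasertib and 136 ± 21.7 TPM with DMSO. SEMA3C and SEMA3B supplied most of this sum.

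SEMA3C, a cue for cardiac neural crest cells that binds both neuropilins, had 295, 325, 284 and 309.5 CPM with etoposide, 302, 321 and 301 CPM with tozasertib, and 89.9, 127, 125 and 144 CPM with DMSO. Every drug-treated library lay above every DMSO library. The gene rose with etoposide (log2 fold change 1.32 ± 0.11, adjusted p = 3.15e-07) and with tozasertib (1.34 ± 0.12, adjusted p = 5.1e-07). SEMA3A, the axon repellent that binds NRP1, had 133, 144, 153 and 147 CPM with etoposide, 138, 142 and 141 CPM with tozasertib, and 31.3, 40.3, 41 and 43.9 CPM with DMSO. Again every drug-treated library lay above every DMSO library, while the drug groups overlapped each other. DMSO replicate 1 was the lowest of its group for both genes. SEMA3A rose by 1.88 ± 0.09 with etoposide (adjusted p = 1.58e-09) and by 1.84 ± 0.09 with tozasertib (adjusted p = 2.96e-09).

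SEMA3D, which guides endothelial and neural crest cells, stood at 17, 22.3, 18.4 and 17.7 CPM with etoposide, 9.66, 9.81 and 11.4 CPM with tozasertib, and 1.9, 2.17, 2.12 and 2.12 CPM with DMSO. This is the largest fold change among the 47 in the etoposide comparison, 3.18 ± 0.12, adjusted p = 1.45e-10, and it was smaller with tozasertib, 2.31 ± 0.12, adjusted p = 3.96e-09; each etoposide library was above each tozasertib library. SEMA3E, which repels vessels through PLXND1 without a neuropilin, stood at 10.2, 13.8, 12.6 and 11.9 CPM with etoposide, 11.7, 12.5 and 10.1 CPM with tozasertib, and 2.42, 3.59, 2.68 and 3.5 CPM with DMSO. No drug-treated library overlapped with DMSO, while the drug groups overlapped each other. SEMA3E rose by 1.99 ± 0.14 with etoposide (adjusted p = 6.68e-08) and by 1.91 ± 0.15 with tozasertib (adjusted p = 1.78e-07). SEMA3D and SEMA3E are low-level members, at 0.593 ± 0.101 TPM and 0.921 ± 0.227 TPM with DMSO.

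SEMA3B, a candidate tumour suppressor of the short arm of chromosome 3, had 311, 287, 224 and 223 CPM with etoposide, 287, 292 and 272 CPM with tozasertib, and 158, 151, 119.9 and 115 CPM with DMSO. The DMSO libraries were all below the drug-treated ones, with etoposide replicates 3 and 4 the lowest of the etoposide group. Its change was 0.94 ± 0.12, adjusted p = 2.36e-05 with etoposide and 1.06 ± 0.13, adjusted p = 1.52e-05 with tozasertib. Transcripts annotated as coding held 78.1% of SEMA3B reads with etoposide, 77.9% with tozasertib and 76.7% with DMSO. SEMA3G, a ligand of NRP2, had 54 reads with etoposide, 135 with tozasertib and 70 with DMSO; it rose with tozasertib (0.88 ± 0.30, adjusted p = 0.024) and not with etoposide (-0.57 ± 0.31, adjusted p = 0.133). Its tozasertib call was lost without DMSO replicate 3 (adjusted p = 0.0659) and without tozasertib replicate 4 (0.109), and its etoposide value passed the test without DMSO replicate 3 (log2 fold change -0.77, adjusted p = 0.0424). With read counts rescaled by transcript length its tozasertib value was 0.06, and its etoposide value passed the test at -1.40 (adjusted p = 0.0321).

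SEMA3C, SEMA3E, SEMA3A and SEMA3D are neighbours on the long arm of chromosome 7, within 4.44 Mb (GRCh38, chr7:80742538-85187056), all read from the minus strand. Counted from the start of SEMA3C, the starts of SEMA3E, SEMA3A and SEMA3D lie 2.73, 3.57 and 4.26 Mb further along. The 3 other protein-coding genes of this stretch are HGF, CACNA2D1 and PCLO, a choice of region made after the values were known. HGF, the ligand of MET, was below 0.05 TPM in each mean and was not tested. CACNA2D1, a calcium channel subunit, rose with etoposide (log2 fold change 0.32 ± 0.11, adjusted p = 0.0251) and did not pass the test with tozasertib (0.23 ± 0.12, adjusted p = 0.113). PCLO, a presynaptic scaffold, changed by 0.52 ± 0.15 with etoposide (adjusted p = 0.0102) and by 0.62 ± 0.16 with tozasertib (adjusted p = 0.0047). In these read-count values both genes changed less than the 4 semaphorins around them. In TPM the gap was narrower for PCLO, which averaged 5.05 with etoposide, 5.19 with tozasertib and 1.8 with DMSO. CACNA2D1 averaged 9.56, 9.85 and 6.62 TPM in the same order. SEMA3C, the semaphorin of the 4 with the smallest change, averaged 168, 184 and 54 TPM.

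RefSeq (GRCh38.p14) held the 250 bases before and 50 bases after a start for 47 of the 53 genes. The sequences of the 3 chromosome 7 semaphorins with an entry, and of NRP2, are shown as the neighbouring ligands that rose and the neuropilin that rose with them; SEMA3B, on chromosome 3, also rose and is not printed; in each, the RefSeq start is also that of the GENCODE transcript with the most reads. Capitals mark matches, on either strand, to the TATA box TATAAA, the GC box GGGCGG, the AP-1 site TGANTCA, the E-box CACGTG, the letters CATGTG, the CRE TGACGTCA, the CCAAT box CCAAT and the p53 half-site.
SEMA3C, chr7:80919002-80919301, minus strand: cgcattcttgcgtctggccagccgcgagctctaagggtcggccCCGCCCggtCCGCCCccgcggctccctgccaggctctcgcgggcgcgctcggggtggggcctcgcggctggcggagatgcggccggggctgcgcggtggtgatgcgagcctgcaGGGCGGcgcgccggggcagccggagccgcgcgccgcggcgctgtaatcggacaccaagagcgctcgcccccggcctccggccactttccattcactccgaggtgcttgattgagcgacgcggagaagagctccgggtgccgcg
SEMA3D, chr7:85187007-85187306, minus strand: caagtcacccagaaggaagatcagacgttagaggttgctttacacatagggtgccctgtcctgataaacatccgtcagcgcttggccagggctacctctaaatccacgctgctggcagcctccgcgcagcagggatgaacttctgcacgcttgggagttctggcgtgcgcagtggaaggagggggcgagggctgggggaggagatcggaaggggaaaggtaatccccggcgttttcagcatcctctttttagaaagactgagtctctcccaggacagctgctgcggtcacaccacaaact
SEMA3E, chr7:83649090-83649389, minus strand: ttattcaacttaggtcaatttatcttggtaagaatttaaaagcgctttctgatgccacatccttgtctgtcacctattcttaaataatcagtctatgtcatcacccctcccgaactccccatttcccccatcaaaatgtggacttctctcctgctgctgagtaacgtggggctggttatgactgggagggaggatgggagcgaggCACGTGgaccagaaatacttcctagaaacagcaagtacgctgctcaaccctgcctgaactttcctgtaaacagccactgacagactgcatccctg
NRP2, chr2:205682251-205682550, plus strand: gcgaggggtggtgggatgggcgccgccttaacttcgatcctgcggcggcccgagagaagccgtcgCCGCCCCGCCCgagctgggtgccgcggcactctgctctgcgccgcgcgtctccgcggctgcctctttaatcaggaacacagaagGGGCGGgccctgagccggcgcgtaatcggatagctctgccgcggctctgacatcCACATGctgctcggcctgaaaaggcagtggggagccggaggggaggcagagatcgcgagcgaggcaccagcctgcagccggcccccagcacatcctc

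The SEMA3C window held 3 GC boxes and the NRP2 window 3 GC boxes, of which 2 overlap by 1 base, and 1 CATGTG. In the SEMA3E window the single match was an E-box, and in the SEMA3D window none of the 8 motifs was found, which says only that these letters are not in this window. Over 27305 promoters of the same length, 44.6% held a GC box, 7.43% an E-box, 11.2% CATGTG, 35.7% a CCAAT box, 12% a TATA box, 7.76% an AP-1 site, 6.54% a p53 half-site and 1.98% a CRE. A GC box stood in 43 of the 47 members' windows (91.5%); the 4 without one belong to EPHA3, PLXNA4, SEMA3D and SEMA3E. The members' windows had a median GC content of 70%, against 58.3% over all promoters, and SEMA3E had the lowest of them, 47.3%. The promoters over all symbols were the first listed start of each, without a filter on gene type. The members are protein-coding, and their windows are at the start nearest the transcript with the most reads. These shares and GC contents are therefore not from like sets.

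The neuropilins moved apart. NRP2, co-receptor for SEMA3F and VEGF-C, had 490.5, 514, 484 and 486 CPM with etoposide, 576, 590.3 and 582 CPM with tozasertib, and 220.4, 279, 290.2 and 317 CPM with DMSO. All drug-treated libraries exceeded all DMSO libraries. NRP2 rose with etoposide (0.84 ± 0.09, adjusted p = 2.54e-06) and with tozasertib (1.08 ± 0.09, adjusted p = 4.59e-07). NRP1, co-receptor for SEMA3A and VEGF-A, had 428, 473, 422 and 427 CPM with etoposide, 341, 353 and 326 CPM with tozasertib, and 397, 539, 531 and 630.2 CPM with DMSO. The tozasertib libraries lay below all others, whereas the etoposide libraries fell inside the wide DMSO range, in which replicate 1 was lowest and replicate 4 highest. NRP1 fell with tozasertib (-0.62 ± 0.12, adjusted p = 0.000465) and did not pass the test with etoposide (-0.26 ± 0.11, adjusted p = 0.0506). That etoposide value passed without DMSO replicate 1 (-0.38, adjusted p = 0.0002) and without etoposide replicate 2 (-0.30, adjusted p = 0.0466).

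The transcripts of NRP2 also changed in their shares, a description added after the values were seen and not tested. NRP2-203 and NRP2-204 code for 926 and 931 amino acids and share the end of their coding sequence at chr2:205795055, while NRP2-201, of 906 amino acids, ends its coding sequence at chr2:205776523 in another exon; such forms of NRP2 are known to differ in their membrane-spanning and cytoplasmic ends. NRP2-201 held 38.1, 37.1, 37.4 and 35.3% of NRP2 reads with etoposide, 33.5, 31.7 and 33.8% with tozasertib, and 26.5, 25.9, 26.8 and 26.3% with DMSO. No library of 1 group overlapped with another group. NRP2-203 held 47 ± 2.86% with etoposide, 50 ± 0.422% with tozasertib and 59.9 ± 2.95% with DMSO. The shares are Salmon's division of single-end reads among overlapping transcripts, so their error includes that division. NRP1 reads lay all on coding transcripts, with 70.1 ± 3.64% on the leading one with etoposide, 69.3 ± 2.75% with tozasertib and 64.2 ± 5.82% with DMSO.

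**Figure D3:**
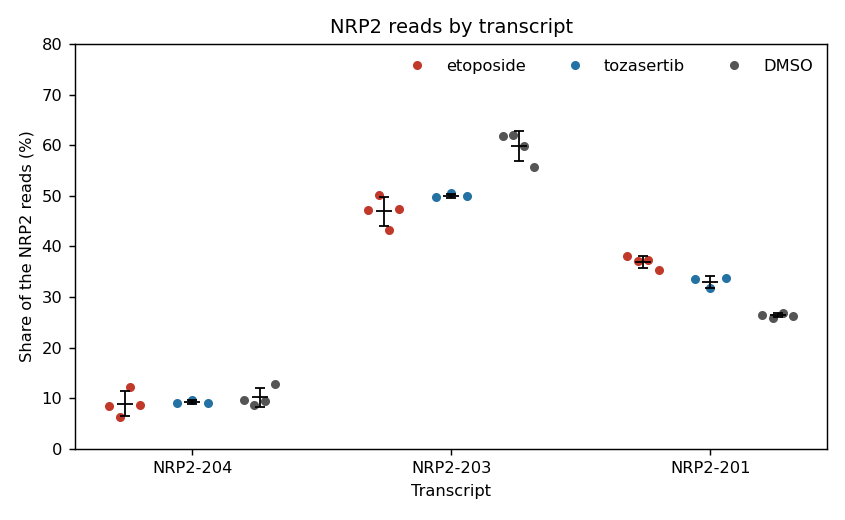
Share of NRP2 reads (percent) assigned to the 3 NRP2 transcripts with the largest shares, for each library (points), with the mean and SD (bars), for etoposide, tozasertib and DMSO. NRP2-201 lies between 35.3 and 38.1% with etoposide, between 31.7 and 33.8% with tozasertib and between 25.9 and 26.8% with DMSO.

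Of the 9 plexins, 6 rose (66.7%) and 2 fell (22.2%) with each drug, and PLXNA1 passed the test with neither. Over all genes tested, 27.7% rose and 30.6% fell with etoposide, and 29.9% rose and 29.4% fell with tozasertib. The plexins that fell were PLXNA2 and PLXNA4, receptors of class 6 semaphorins that also serve class 3 complexes. PLXNA2 had 5.5, 4.86, 5.44 and 4.96 CPM with etoposide, 8.4, 9.32 and 8.72 CPM with tozasertib, and 21.9, 23.8, 30.1 and 38.9 CPM with DMSO. The order in CPM was the same in all libraries, etoposide below tozasertib below DMSO, and no groups overlapped. It fell with etoposide (-2.46 ± 0.16, adjusted p = 2.63e-08) and with tozasertib (-1.71 ± 0.17, adjusted p = 1.59e-06). In TPM, tozasertib replicate 1 (2.4) lay above DMSO replicate 1 (2.13). The mean transcript length of PLXNA2 was 8803 ± 2469 bases with etoposide, 7013 ± 1352 with tozasertib and 10736 ± 964 with DMSO. Over 23 alternative settings its tozasertib value ran from -1.88 to -1.08 and the call was kept. PLXNA4 had 2.86, 3.5, 4.23 and 4.43 CPM with etoposide, 3.03, 3.05 and 3.94 CPM with tozasertib, and 5.98, 7.68, 9.28 and 13.3 CPM with DMSO. All drug-treated libraries were below the lowest DMSO library, and DMSO replicate 4 stood highest of all. Its change was -1.28 ± 0.22, adjusted p = 0.00028 with etoposide and -1.44 ± 0.25, adjusted p = 0.000234 with tozasertib; with counts rescaled by transcript length the etoposide value was -0.58 (adjusted p = 0.0718), the mean transcript length being 7731 ± 1641 bases with etoposide, 13725 ± 1355 with tozasertib and 13044 ± 1388 bases with DMSO.

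PLXNB2, the receptor of SEMA4C, had 477, 471, 495 and 491 CPM with etoposide, 481, 503 and 479.7 CPM with tozasertib, and 186, 227, 222 and 217 CPM with DMSO. Its drug-treated libraries were all far above DMSO and close to each other. It rose with etoposide (1.18 ± 0.06, adjusted p = 4.57e-09) and with tozasertib (1.19 ± 0.07, adjusted p = 7.14e-09). PLXNB1, the receptor of SEMA4D, had 170.0, 157, 160.1 and 158 CPM with etoposide, 217, 214 and 210.1 CPM with tozasertib, and 114, 127, 116 and 119.6 CPM with DMSO. Here tozasertib was above etoposide and etoposide above DMSO in every library. PLXNB1 rose by 0.43 ± 0.05 with etoposide (adjusted p = 7.97e-06) and by 0.84 ± 0.05 with tozasertib (adjusted p = 2.77e-08).

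PLXNB3, the receptor of SEMA5A, had 239, 193, 175 and 177 CPM with etoposide, 237, 225 and 201 CPM with tozasertib, and 122, 154, 139.7 and 131 CPM with DMSO. The drug-treated libraries stayed above DMSO, with etoposide replicate 1 standing highest. It rose with etoposide (0.52 ± 0.10, adjusted p = 0.000739) and with tozasertib (0.69 ± 0.11, adjusted p = 0.000129). With counts rescaled by transcript length these values were 0.17 (adjusted p = 0.361) and 0.33 (adjusted p = 0.0999); its mean transcript length was 4784 ± 312 bases with etoposide, 4776 ± 310 with tozasertib and 3826 ± 707 with DMSO. PLXNA1, a class 3 co-receptor, had 151, 157, 182 and 187 CPM with etoposide, 143, 146 and 151 CPM with tozasertib, and 144, 165, 167 and 185 CPM with DMSO. Its groups overlapped, at 0.03 ± 0.08, adjusted p = 0.744 with etoposide and -0.17 ± 0.09, adjusted p = 0.121 with tozasertib; the tozasertib value passed the test without DMSO replicate 1 (-0.24, adjusted p = 0.0193) and after removing a trend on gene length (-0.39, adjusted p = 0.000603).

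PLXNA3, another class 3 co-receptor, rose with etoposide (0.87 ± 0.10, adjusted p = 6.58e-06) and with tozasertib (0.53 ± 0.11, adjusted p = 0.000794). The 2 remaining plexins were low: PLXNC1, the receptor of SEMA7A, had 118 reads with etoposide, 174 with tozasertib and 55 with DMSO, and PLXND1, the receptor of SEMA3E, had 202 with etoposide, 187 with tozasertib and 54 with DMSO. PLXNC1 rose with etoposide (0.89 ± 0.27, adjusted p = 0.0125) and with tozasertib (1.61 ± 0.28, adjusted p = 0.000244), and PLXND1 rose with etoposide (1.73 ± 0.36, adjusted p = 0.00108) and with tozasertib (1.71 ± 0.38, adjusted p = 0.00161). With counts rescaled by transcript length the calls of PLXND1 were lost (etoposide 0.61, adjusted p = 0.325; tozasertib 0.68, adjusted p = 0.298), as was the etoposide call of PLXNC1 (0.66, adjusted p = 0.205).

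**Figure D4:**
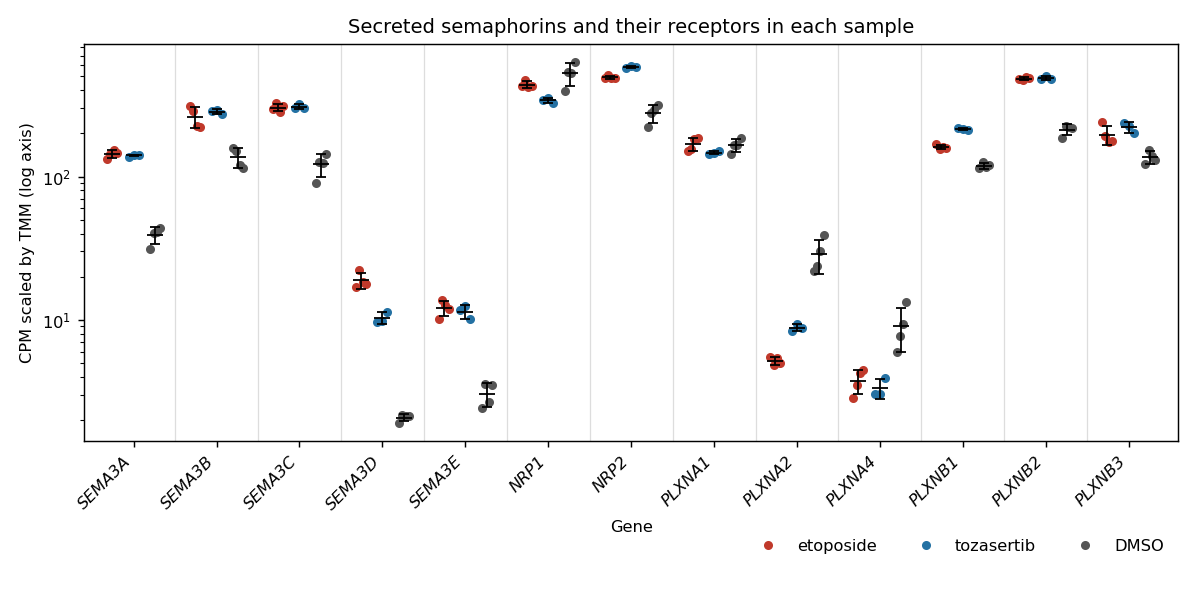
CPM (log axis) of the class 3 semaphorins, neuropilins and plexins described sample by sample, 1 point for each library, with the mean and SD as bars, for etoposide, tozasertib and DMSO. SEMA3A lies between 133 and 153 CPM with etoposide, between 138 and 142 CPM with tozasertib and between 31.3 and 43.9 CPM with DMSO, and PLXNA2 is highest with DMSO.

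Membrane-bound semaphorins of classes 4 to 7 went both ways, in shares near those of all genes. With etoposide 4 of the 12 tested rose (33.3%, against 27.7% of all genes tested) and 3 fell (25%, against 30.6%), and with tozasertib 5 rose (41.7%, against 29.9%) and 3 fell (25%, against 29.4%). Among the rises are SEMA5A and SEMA6D with both drugs and SEMA4A with tozasertib, which reached the filter's count only in drug-treated groups, so these rises are not independent of that filter. The summed level of the family was 159 ± 5.44 TPM with etoposide, 141 ± 7.6 TPM with tozasertib and 165 ± 13.4 TPM with DMSO. SEMA6B, a ligand of PLXNA4 in mouse, had 78.6, 85.1, 80.6 and 74.1 CPM with etoposide, 42.4, 42.9 and 33.5 CPM with tozasertib, and 207, 173, 139 and 117 CPM with DMSO. Tozasertib libraries were lowest and DMSO libraries highest, without overlap, and DMSO replicate 1 was here the highest of its group. It fell by 1.00 ± 0.14 with etoposide (adjusted p = 5.43e-05) and by 2.01 ± 0.17 with tozasertib (adjusted p = 3.05e-07). SEMA7A, a lipid-anchored ligand of PLXNC1 and of integrin beta-1, had 64.8, 73.2, 78 and 76.5 CPM with etoposide, 45.6, 44.9 and 46.1 CPM with tozasertib, and 82.9, 87, 92.2 and 99.2 CPM with DMSO. It followed the same order of groups and fell by 0.31 ± 0.07 with etoposide (adjusted p = 0.00225) and by 0.99 ± 0.08 with tozasertib (adjusted p = 2e-07).

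SEMA4D, the ligand of PLXNB1, had 5.13, 5.28, 5.21 and 4.19 CPM with etoposide, 5.92, 5.29 and 5.21 CPM with tozasertib, and 10.5, 10.6, 9.65 and 10.6 CPM with DMSO. DMSO was highest in every library, and the drug groups overlapped each other. It fell with etoposide (-1.06 ± 0.10, adjusted p = 8.56e-07) and with tozasertib (-0.91 ± 0.11, adjusted p = 7.95e-06). SEMA4G, a transmembrane semaphorin of class 4, had 10.2, 8.65, 13.3 and 12.5 CPM with etoposide, 8.31, 7.11 and 9.78 CPM with tozasertib, and 4.59, 4.3, 6.51 and 5.53 CPM with DMSO. The drug-treated libraries lay above DMSO, and it rose with etoposide (1.09 ± 0.17, adjusted p = 8.19e-05) and with tozasertib (0.68 ± 0.18, adjusted p = 0.0049). SEMA4C, the ligand of PLXNB2, was the most abundant of classes 4 to 7 with tozasertib and etoposide and had 104, 95, 93.6 and 94.8 CPM with etoposide, 109, 106 and 105 CPM with tozasertib, and 100, 101, 96.5 and 101 CPM with DMSO. The tozasertib libraries lay just above DMSO, and etoposide overlapped with DMSO. Its values passed the test neither with etoposide (-0.04 ± 0.05, adjusted p = 0.53) nor with tozasertib (0.10 ± 0.05, adjusted p = 0.118).

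SEMA6C rose with etoposide (0.75 ± 0.10, adjusted p = 1.73e-05) and with tozasertib (0.48 ± 0.10, adjusted p = 0.00131). The sparse SEMA5A, a ligand of PLXNB3, and SEMA6D, a ligand of PLXNA1 in chick and mouse, rose with etoposide (1.55 and 1.64, adjusted p = 0.0023 and 0.00787) and with tozasertib (1.77 and 1.68, adjusted p = 0.00114 and 0.00839). SEMA6D rested on 51 reads with etoposide, 49 with tozasertib and 14 with DMSO, and all 4 calls were lost with counts rescaled by transcript length. SEMA5A and SEMA6D were tested through drug-treated groups, so these calls are not independent of the count filter. SEMA4A, known from immune cells, had 12 reads with etoposide, 54 with tozasertib and 2 with DMSO over the libraries of each group; per read sequenced, tozasertib was 27.6 times DMSO, with a 95% exact counting interval of 7.28 to 234. SEMA4A reached the filter's count only with tozasertib, so its tozasertib call (adjusted p = 0.000172) is not independent of that filter. Its etoposide value had adjusted p = 0.0563. The etoposide value passed without DMSO replicate 4 (adjusted p = 0.00807) and without etoposide replicate 4 (0.0441). SEMA4B, SEMA4F and SEMA6A passed the test with neither drug, with log2 fold changes between -0.28 and 0.11. For SEMA6A the test was passed without DMSO replicate 1, with etoposide (-0.37, adjusted p = 0.0303) and with tozasertib (-0.43, adjusted p = 0.0193), and for SEMA4B with tozasertib without DMSO replicate 1 (-0.19, adjusted p = 0.0478) and without tozasertib replicate 4 (-0.24, adjusted p = 0.0317).

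Among the ephrins, 1 of the 8 tested rose and 1 fell with etoposide, and 3 rose and 2 fell with tozasertib, where 27.7% of all genes tested rose and 30.6% fell with etoposide, and 29.9% rose and 29.4% fell with tozasertib. EFNB1, a transmembrane ligand of EphB receptors coded on the X chromosome, had 19.1, 18.6, 20.1 and 21.6 CPM with etoposide, 26.3, 24 and 26 CPM with tozasertib, and 13.6, 11.3, 12.8 and 13.1 CPM with DMSO. Its groups formed 3 steps without overlap, tozasertib highest and DMSO lowest. EFNB1 rose with etoposide (0.64 ± 0.08, adjusted p = 8.86e-06) and with tozasertib (1.00 ± 0.08, adjusted p = 2.3e-07). EFNB2, the ligand of EPHB4 in vessel formation, had 69, 77.4, 84 and 84.9 CPM with etoposide, 99.1, 108 and 109.7 CPM with tozasertib, and 64.4, 81.8, 76.5 and 77.5 CPM with DMSO. Only the tozasertib libraries stood apart, and EFNB2 rose with tozasertib (0.49 ± 0.09, adjusted p = 0.000384) and did not pass the test with etoposide (0.07 ± 0.08, adjusted p = 0.496). Reads of EFNA2 were nearly confined to tozasertib, with 49 reads there, 0 with etoposide and 1 with DMSO, summed over the libraries of each group. Per read sequenced, tozasertib was 50.1 times DMSO, with a 95% exact counting interval of 8.58 to 2020. EFNA2 reached the filter's count only with tozasertib, so its call (adjusted p = 0.000226) is not independent of that filter.

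EFNA5, a lipid-anchored ligand of EphA receptors, fell with etoposide (-0.76 ± 0.08, adjusted p = 3.96e-06) and with tozasertib (-0.71 ± 0.09, adjusted p = 1.7e-05). EFNA3 fell with tozasertib (-0.57 ± 0.19, adjusted p = 0.0216) and gave -0.28 ± 0.18, adjusted p = 0.189 with etoposide, which passed with counts rescaled by transcript length (-0.49, adjusted p = 0.0473). The call of EFNA3 was lost without tozasertib replicate 1 (adjusted p = 0.104), without tozasertib replicate 2 (0.0692) and without DMSO replicate 3 (0.0564). EFNA1, EFNA4 and EFNB3 passed the test with neither drug, between -0.23 and -0.04 in both comparisons. EFNA1 with etoposide passed without DMSO replicate 4 (-0.29, adjusted p = 0.0221) and without etoposide replicate 4 (-0.30, adjusted p = 0.0291), and EFNA4 with tozasertib passed without DMSO replicate 4 (-0.30, adjusted p = 0.0467). EFNA3 and EFNA4 are adjacent on chromosome 1 and overlap an annotated read-through gene, so that their reads may be split with it.

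Of the 10 tested Eph receptors, 5 rose and 2 fell with etoposide, and 3 rose and 3 fell with tozasertib, where the shares of all genes tested that rose and fell were 27.7 and 30.6% with etoposide and 29.9 and 29.4% with tozasertib. EPHB2, a receptor of ephrin-B ligands, had 29.9, 30.0, 36.2 and 33.3 CPM with etoposide, 19.2, 20.9 and 23.5 CPM with tozasertib, and 12.1, 11.7, 12.6 and 12.1 CPM with DMSO. Etoposide libraries were highest, tozasertib libraries in between and DMSO libraries lowest, with no overlap. It rose with etoposide (1.42 ± 0.08, adjusted p = 1.18e-08) and with tozasertib (0.80 ± 0.09, adjusted p = 5.4e-06). EPHA2, a receptor of ephrin-A1 and the most abundant Eph receptor here, had 227, 229, 235 and 218 CPM with etoposide, 267, 288 and 276 CPM with tozasertib, and 193, 214, 202 and 209 CPM with DMSO. The steps between the groups were small, though no groups overlapped. EPHA2 rose with tozasertib (0.44 ± 0.05, adjusted p = 1.48e-05) and with etoposide (0.15 ± 0.05, adjusted p = 0.0208). The etoposide call was lost without etoposide replicate 2 (adjusted p = 0.0521), without etoposide replicate 3 (0.0651) and without DMSO replicate 3 (0.0604), and after removing a trend on gene length (log2 fold change 0.09, adjusted p = 0.168).

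EPHA7, an ephrin-A receptor of the developing nervous system, had 5.13, 4.6, 4.06 and 3.04 CPM with etoposide, 5.46, 5.46 and 4.56 CPM with tozasertib, and 8.12, 11.6, 10.9 and 12.3 CPM with DMSO. Both drug groups were below all DMSO libraries, and it fell with etoposide (-1.34 ± 0.16, adjusted p = 1.17e-05) and with tozasertib (-1.05 ± 0.18, adjusted p = 0.000195). EPHB3, another ephrin-B receptor, fell with etoposide (-1.62 ± 0.31, adjusted p = 0.000497) and with tozasertib (-0.93 ± 0.31, adjusted p = 0.0208), on 62 reads with etoposide, 94 with tozasertib and 165 with DMSO. Its tozasertib call was lost without tozasertib replicate 2 (-0.75, adjusted p = 0.0875) and without DMSO replicate 2 (-0.82, adjusted p = 0.0552), and with counts rescaled by transcript length its tozasertib value turned to 0.05 (adjusted p = 0.941) and its etoposide call was lost (-1.01, adjusted p = 0.123). EPHA4, which binds ligands of both ephrin classes, rose with etoposide (0.74 ± 0.16, adjusted p = 0.00139) and with tozasertib (0.61 ± 0.17, adjusted p = 0.00722).

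EPHA5, a neuronal receptor of ephrin-A ligands, rose with etoposide (0.68 ± 0.15, adjusted p = 0.0021) and gave 0.20 ± 0.17, adjusted p = 0.322 with tozasertib. EPHB1 rose with etoposide (0.31 ± 0.11, adjusted p = 0.0301), a call lost in 5 of the 11 fits that left out 1 library: without etoposide replicates 2 (adjusted p = 0.0595), 3 (0.0764) or 4 (0.0537) and without DMSO replicates 1 (0.0649) or 2 (0.094). With tozasertib EPHB1 gave 0.19 ± 0.12, adjusted p = 0.181, which passed without DMSO replicate 4 (0.32, adjusted p = 0.00998). EPHB4, the receptor of EFNB2, fell with tozasertib (-0.18 ± 0.07, adjusted p = 0.0395). That call was lost without any 1 of tozasertib replicates 1 (0.0823), 2 (0.113) and 4 (0.0741), etoposide replicate 2 (0.0506) and DMSO replicates 1 (0.0627) and 2 (0.08). EPHA3 and EPHA6 passed the test with neither drug, between 0.26 and 0.56. EPHA3 passed without DMSO replicate 2 with etoposide (0.61, adjusted p = 0.0428) and with tozasertib (0.75, adjusted p = 0.0203), and without tozasertib replicate 4 with tozasertib (0.69, adjusted p = 0.0467).

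**Figure D5:**
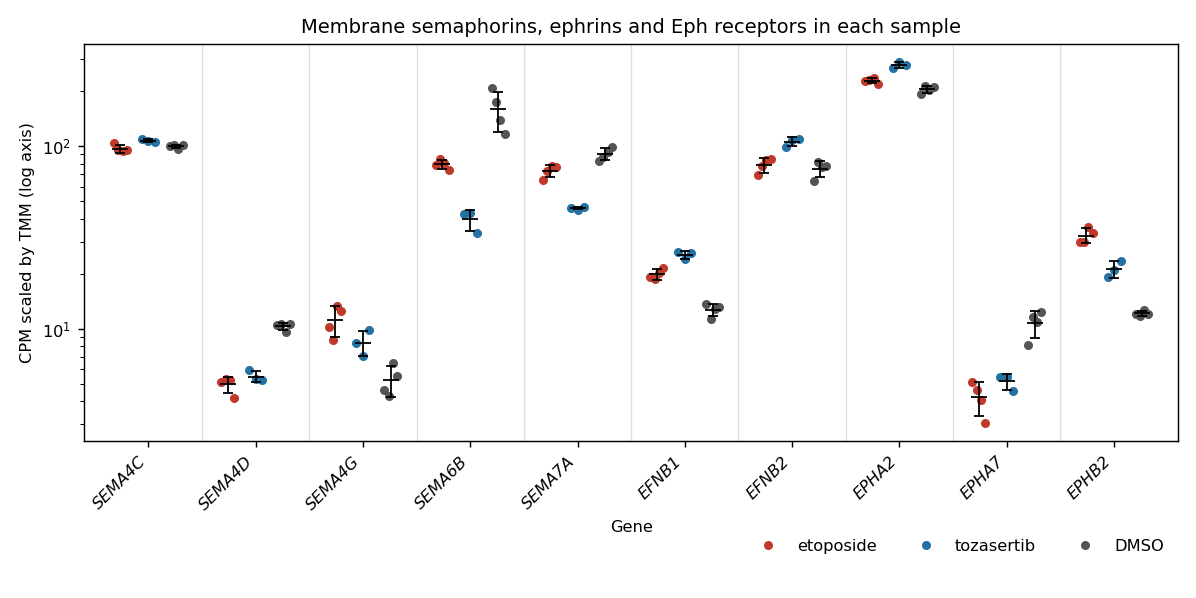
CPM (log axis) of the membrane-bound semaphorins, ephrins and Eph receptors described sample by sample, 1 point for each library, with the mean and SD as bars, for etoposide, tozasertib and DMSO. EPHB2 lies between 29.9 and 36.2 CPM with etoposide, between 19.2 and 23.5 CPM with tozasertib and between 11.7 and 12.6 CPM with DMSO; SEMA6B runs in the other direction.

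Set directly against etoposide, tozasertib left 8 of the 47 genes higher (17%, where 5.66% of all genes tested were higher) and 5 lower (10.6%, where 5.45% were lower). With DESeq2 in place of edgeR, 9 were called higher and 9 lower, so that 50% of the members' calls were higher, against 61.5% with edgeR. The median log2 fold change was 0.01, against 0.008 over all genes tested, and the CPM of the groups did not overlap for 22 of the 47 (46.8%, against 30.9% of all genes tested). On the ligand side, SEMA3D (-0.87 ± 0.11, adjusted p = 0.000161), SEMA6B (-1.01 ± 0.16, adjusted p = 0.00129), SEMA7A (-0.68 ± 0.08, adjusted p = 8.58e-05) and SEMA4B (-0.28 ± 0.08, adjusted p = 0.0336) were lower with tozasertib. EFNB1 (0.36 ± 0.08, adjusted p = 0.00982), EFNB2 (0.42 ± 0.09, adjusted p = 0.00799) and SEMA3G (1.45 ± 0.31, adjusted p = 0.00861) were higher. SEMA4A, at 54 reads with tozasertib and 12 with etoposide, and EFNA2, at 49 and 0 reads, were also called higher (adjusted p = 0.0151 and 0.0009). Both genes reached the filter's count only with tozasertib, so these calls are not independent of that filter.

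On the receptor side, EPHB2 was lower with tozasertib (-0.61 ± 0.09, adjusted p = 0.000575), and PLXNA2 (0.76 ± 0.17, adjusted p = 0.0118), PLXNB1 (0.41 ± 0.05, adjusted p = 0.000337) and EPHA2 (0.29 ± 0.05, adjusted p = 0.00434) were higher. Leaving out tozasertib replicate 1 ended the call of EFNB1 (adjusted p = 0.0649), and leaving out tozasertib replicate 2 ended that of PLXNA2 (0.0535) and of SEMA4A (0.0756), which was also lost without tozasertib replicate 4 (0.0508). SEMA4B lost its call in 5 such fits, without tozasertib replicates 1 (0.126) or 2 (0.17), etoposide replicates 3 (0.0925) or 4 (0.0964) or DMSO replicate 3 (0.0513). NRP1 (-0.36 ± 0.12, adjusted p = 0.0629), NRP2 (0.24 ± 0.09, adjusted p = 0.127), PLXNA3 (-0.33 ± 0.11, adjusted p = 0.0631), EPHA5 (-0.48 ± 0.16, adjusted p = 0.0859) and EPHB4 (-0.22 ± 0.07, adjusted p = 0.0548) did not pass. Without DMSO replicate 1, which enters the shared estimate of the spread, all 5 did, with adjusted p = 0.0017 for NRP1, 0.0041 for NRP2, 0.00302 for PLXNA3, 0.0103 for EPHA5 and 0.0121 for EPHB4. Without DMSO replicate 4 this held for NRP1 (0.0289), EPHA5 (0.0471) and EPHB4 (0.0486), and without etoposide replicate 1 for EPHB4 (0.0409) and SEMA4C (0.0445).

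Partners of these receptors were read from lists chosen with earlier results known. Of the 14 measured semaphorin co-receptors and neuropilin-binding growth factors, 4 rose (28.6%, against 27.7% of all genes tested) and 3 fell (21.4%, against 30.6%) with etoposide, and 4 rose (28.6%, against 29.9%) and 1 fell (7.14%, against 29.4%) with tozasertib, with medians of 0.02 and 0.11. L1CAM, an adhesion molecule that joins NRP1 in the SEMA3A receptor, rose with etoposide (1.28 ± 0.06, adjusted p = 2.22e-09) and with tozasertib (0.92 ± 0.07, adjusted p = 8.53e-08), and ITGB1, the integrin beta-1 chain that serves SEMA7A, rose with etoposide (0.84 ± 0.06, adjusted p = 8.14e-08) and with tozasertib (0.54 ± 0.07, adjusted p = 1.15e-05). VEGFA, the growth factor that binds NRP1, fell with etoposide (-1.65 ± 0.14, adjusted p = 4.86e-07) and with tozasertib (-1.72 ± 0.16, adjusted p = 9.84e-07). Between the drugs, L1CAM (-0.36) and ITGB1 (-0.30) were lower and ITGA1, its alpha-1 partner, higher (0.55) with tozasertib (adjusted p = 0.0038, 0.01 and 0.0424).

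Of the 25 measured semaphorin and plexin effectors, 7 rose (28%, against 27.7% of all genes tested) and 7 fell (28%, against 30.6%) with etoposide, and 5 rose (20%, against 29.9%) and 9 fell (36%, against 29.4%) with tozasertib, with medians of -0.08 and -0.01. RND3, a small GTPase-like protein that loosens the actin cytoskeleton, rose with etoposide (0.78 ± 0.07, adjusted p = 9.94e-07) and tozasertib (1.08 ± 0.08, adjusted p = 8.27e-08), as did LIMK2, a kinase of cofilin, with 0.69 ± 0.08, adjusted p = 8.42e-06 and 0.78 ± 0.09, adjusted p = 5.37e-06. The cofilin gene CFL1 fell with etoposide (-0.62 ± 0.10, adjusted p = 9.85e-05) and with tozasertib (-0.69 ± 0.10, adjusted p = 8.57e-05). DPYSL3, of the collapsin response mediator family, fell with etoposide (-0.51 ± 0.07, adjusted p = 4.38e-05) and with tozasertib (-1.16 ± 0.08, adjusted p = 5.2e-08) and was lower with tozasertib than with etoposide (-0.65 ± 0.08, adjusted p = 0.000148). Between the drugs 2 effectors were higher and 5 lower with tozasertib, among them LIMK1, the other cofilin kinase, at -0.37 ± 0.06, adjusted p = 0.00231, and ARHGEF11, an exchange factor bound by B plexins, at 0.35 ± 0.08, adjusted p = 0.0113.

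Of the 28 measured Eph and ephrin effectors, proteases and phosphatases, 10 rose (35.7%, against 27.7% of all genes tested) and 9 fell (32.1%, against 30.6%) with etoposide, and 8 rose (28.6%, against 29.9%) and 13 fell (46.4%, against 29.4%) with tozasertib, with medians of -0.01 and -0.14. KALRN, an exchange factor downstream of EphB receptors, rose with etoposide (1.09 ± 0.18, adjusted p = 0.000151) and with tozasertib (0.81 ± 0.19, adjusted p = 0.00248), and INPPL1, the lipid phosphatase SHIP2 that binds EPHA2, rose with etoposide (0.81 ± 0.05, adjusted p = 1.25e-08) and with tozasertib (0.72 ± 0.05, adjusted p = 8.15e-08). CHN1, the Rac inhibitor downstream of EPHA4, fell with etoposide (-0.94 ± 0.06, adjusted p = 4.28e-08) and with tozasertib (-0.60 ± 0.07, adjusted p = 7.13e-06), and TIAM1, a Rac activator, fell with etoposide (-0.76 ± 0.08, adjusted p = 2.41e-06) and with tozasertib (-1.01 ± 0.09, adjusted p = 4.21e-07). Against etoposide, 1 gene of this list was higher with tozasertib, CHN1 (0.34 ± 0.07, adjusted p = 0.00596), and 1 lower, NCK2, an adaptor (-0.50 ± 0.06, adjusted p = 0.000188).

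Of the 16 measured genes of the other guidance families, the netrins, Slits, Robos, RGMs and their receptors, 7 rose (43.8%, against 27.7% of all genes tested) and 3 fell (18.8%, against 30.6%) with etoposide, and 7 rose (43.8%, against 29.9%) and 1 fell (6.25%, against 29.4%) with tozasertib, with medians of 0.27 and 0.50. NTN4, a secreted netrin, rose with etoposide (1.93 ± 0.07, adjusted p = 8.42e-11) and with tozasertib (1.46 ± 0.07, adjusted p = 1.5e-09), and NEO1, the neogenin receptor, rose with etoposide (2.36 ± 0.23, adjusted p = 1.33e-06) and with tozasertib (2.23 ± 0.24, adjusted p = 4.06e-06). NTN5, another netrin, rose with etoposide (1.61 ± 0.39, adjusted p = 0.00294) and with tozasertib (1.96 ± 0.40, adjusted p = 0.000943), and ROBO4, the endothelial Robo receptor, fell with etoposide (-1.87 ± 0.08, adjusted p = 3.47e-10) and with tozasertib (-1.30 ± 0.08, adjusted p = 1.73e-08). Between the drugs NTNG2 (0.87) and ROBO4 (0.57) were higher and NTNG1 (-0.68) lower with tozasertib (adjusted p = 0.0241, 0.000455 and 0.00434), NTNG1 and NTNG2 being lipid-anchored netrins.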

How the data were processed

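Poly(A) RNA of 11 samples was made into directional libraries and read single-end. The deposited tables are Salmon's, with an estimated count and a TPM for each transcript that the authors computed; cutadapt 4.7, Salmon 1.9.0 and GRCh38 are given in notes by the submitters, and the study's methods name STAR for alignment. Whether Salmon used strand is not given in the sources used here. Estimated counts were summed to 61542 genes by GENCODE transcript ID (99.6% of 251645 IDs matched; the rest held 0.318 to 0.359% of reads), rounded, and tested over all genes with edgeR 4.0.16 in R 4.3.3 (limma 3.58.1): filterByExpr, TMM, 1 mean per group, quasi-likelihood F test, two-sided, Benjamini-Hochberg adjustment. Deposited TPM were summed to genes for levels. Length-rescaled counts were made from TPM. Replicates differed by more than sampling noise. Intervals cover counting error only. Scripts were tested on simulated data. Replicate 3 of tozasertib was not analysed here. Alternatives were DESeq2 1.42.0, other scalings and filters, and fits without each library.

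The members and lists were chosen with earlier results of these data known. Values in every sample are given for the 23 tested members that were called in any comparison at 2-fold or more with at least 1 TPM in a group mean, or that had at least 20 TPM in a group mean; from each list, the called genes with the 3 largest changes and at least 1 TPM in a group mean are named. Read totals of 27882689 to 56534763 make counting error small beside the spread between libraries, except for sparse members such as EFNA2, SEMA4A and SEMA6D.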

Additional observations from a re-analysis of the deposited data

Results flagged for a closer look

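Of 46 groups of 4 libraries checked, 4 had a highest or lowest library that stood far from the other 3, where chance gives about 1 in 20. NRP1 stood at 473 CPM in etoposide replicate 2, above 422, 427 and 428 CPM in the other etoposide libraries. SEMA4C stood at 104 CPM in etoposide replicate 1, above 93.6, 94.8 and 95 CPM. SEMA4D was lowest at 4.19 CPM in etoposide replicate 4, below 5.13, 5.21 and 5.28 CPM, and lowest at 9.65 CPM in DMSO replicate 3, below 10.5, 10.6 and 10.6 CPM.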

How the results depend on the processing

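Under 23 alternative settings the direction of every called gene was kept, except EPHB3 with tozasertib, which gave 0.05 with counts rescaled by transcript length. Calls kept in every setting that gave a result were 21 of 30 with etoposide, 27 of 35 with tozasertib and 8 of 13 between the drugs. SEMA4A, counted among the 27, had a result in 21 of the 23 settings. Leaving out 1 library gave 28 to 32 members called with etoposide, 32 to 37 with tozasertib and 10 to 18 between the drugs, and 9237 to 10285, 8797 to 10404 and 1032 to 3395 of all genes. The last count was 1893 with all libraries, 1032 without tozasertib replicate 1, 1069 without tozasertib replicate 2 and 3395 without DMSO replicate 1. Length-rescaled counts moved the member counts further, to 24 with etoposide and 27 with tozasertib, and gave 8715 and 8812 of all genes. Between the drugs, leaving DMSO replicates 1 and 4 out of the fit gave 20 members and 3743 genes, fitting only the 2 groups gave 3549 genes and length-rescaled counts gave 1133 genes; the cause was not tested. The share of calls that were higher moved with scaling: with library size alone 58.3% of the tozasertib calls over all genes, against 50.5%, and with DESeq2 40.5% of those between the drugs, against 50.9%; of the members' calls between the drugs, 50% with DESeq2, against 61.5%. Replicate numbers were not taken to pair the samples: deviations of same-numbered libraries correlated at -0.095 to 0.227, at 0.227, 0.091 and 0.123 between etoposide and tozasertib, and DMSO replicate 1 correlated best with tozasertib replicate 4, at 0.06. With the replicate block, 30 members were called with etoposide, 33 with tozasertib and 12 between the drugs, and 9848, 9794 and 1615 of all genes; the calls of EPHB4 and SEMA3G with tozasertib and of SEMA4A and SEMA4B between the drugs were lost, and EPHA5 was gained between the drugs. EFNA2, SEMA3G, SEMA4A, SEMA6D and EPHB3 are limited by depth.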
